A study of Mus musculus with 6 samples.

Results

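Chromatin accessibility was examined at 6 facilitative glucose transporter genes, Slc2a1, Slc2a3, Slc2a4, Slc2a8, Slc2a10 and Slc2a12, in nuclei of mouse muscle fibres with and without knockdown of Yap. The windows were the rows that carry these symbols, 6 of 49366 windows around transcription start sites. The peaks were those on chromosome 6 between 122720000 and 122850000 (GRCm38), the region of Slc2a3, which held 5 of 36097 peaks. The family was selected on the readout. An earlier look at this same contrast had found a peak at Slc2a3 that was lower with Yap-shRNA, so differences between the groups at these genes are given as a description. Outcomes of the fits over all windows or all peaks are stated for them, but no test was run on these genes as a group.

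Facilitative glucose transporters carry hexoses across membranes down their gradient. GLUT4, the product of Slc2a4, is the insulin- and contraction-responsive transporter of muscle fibres and fat cells, and is held in intracellular vesicles until a signal moves it to the surface. GLUT1 (Slc2a1) supplies basal uptake in many cells, GLUT3 (Slc2a3) is the high-affinity transporter best known from neurons, GLUT8 (Slc2a8) is largely intracellular, and GLUT10 and GLUT12 (Slc2a10 and Slc2a12) belong to the same class of the family as GLUT8.

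The assay was ATAC-seq, whose transposase places sequencing adapters into open DNA. Male C57BL/6J mice received AAV6:Yap-shRNA, or AAV6:LacZ-shRNA as the control, in gastrocnemius and tibialis anterior muscles of opposite limbs at 8 weeks of age, and the muscles were taken 28 days later. Each group held 3 replicates, and each replicate combined 4 gastrocnemius and 4 tibialis anterior muscles from which nuclei positive for PCM1, a protein around the nuclei of differentiated muscle fibres, were sorted. Both groups therefore carried a viral vector and a hairpin, and the control hairpin targets a bacterial gene. Yap is a coactivator of the Hippo pathway that reaches DNA through TEAD factors, and the comparison asks which accessible regions differ after its knockdown.

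The libraries held between 3326803 and 10319467 counts in windows and between 2588520 and 6871176 in peaks, with LacZ-shRNA replicates 1 and 2 the shallowest in both. The Yap1 window held 12.1, 16.7 and 14.1 CPM (counts scaled to library size with TMM factors) in LacZ-shRNA and 14.7, 16.5 and 12.1 in Yap-shRNA, but an shRNA acts on RNA and this level does not measure the knockdown. The windows of 13 skeletal muscle fibre markers had a median level per kb at the 99.3 percentile of all windows, and the medians of the endothelial, leukocyte, fibroblast, satellite cell, adipocyte and Schwann cell marker lists lay between the 37.4 and 74.9 percentiles. The lists overlapped, with single muscle fibre markers from the 43.1 to the 99.9 percentile and single markers of the other lists from the 10.7 to the 92.6. No marker window was at 0 in any sample. A smaller share of nuclei of one type and lower accessibility per nucleus cannot be told apart in pooled nuclei. The labels do not say which mice supplied which pool, so the spread between replicates may hold less than the variation between animals. Because opposite limbs were injected, the groups share mice, but the main fit was unpaired and treated the groups as independent.

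The sequences below are those of the Slc2a3 peak through which the family was chosen, of the peak at the upstream Slc2a3 start beside it, and of both accessible sites near Slc2a1. Capitals mark matches to a fixed panel of strings, searched on both strands. The panel was ACATTCC for TEAD, TGANTCA for AP-1, CTANNNNTAG for MEF2, GNACANNNTGTNC for the glucocorticoid receptor, CAGCTG for the E-box of myogenic factors and ACGTG for the core of the hypoxia response element. In these sequences no match overlapped another.
Slc2a3 intron peak, chr6:122795438-122795737, minus strand: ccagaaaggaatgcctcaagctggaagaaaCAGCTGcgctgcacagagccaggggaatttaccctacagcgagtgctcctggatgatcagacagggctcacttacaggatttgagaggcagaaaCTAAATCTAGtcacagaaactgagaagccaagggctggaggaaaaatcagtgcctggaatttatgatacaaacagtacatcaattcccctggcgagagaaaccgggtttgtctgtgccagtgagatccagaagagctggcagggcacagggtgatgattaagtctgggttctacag
Slc2a3 start peak, chr6:122801417-122801716, minus strand: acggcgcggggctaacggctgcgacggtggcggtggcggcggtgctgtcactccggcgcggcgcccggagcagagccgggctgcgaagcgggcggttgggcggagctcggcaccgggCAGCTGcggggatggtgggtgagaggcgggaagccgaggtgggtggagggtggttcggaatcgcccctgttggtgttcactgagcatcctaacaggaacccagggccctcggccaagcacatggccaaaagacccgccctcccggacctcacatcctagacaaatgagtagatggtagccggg
Slc2a1 upstream peak, chr4:119102424-119102723, plus strand: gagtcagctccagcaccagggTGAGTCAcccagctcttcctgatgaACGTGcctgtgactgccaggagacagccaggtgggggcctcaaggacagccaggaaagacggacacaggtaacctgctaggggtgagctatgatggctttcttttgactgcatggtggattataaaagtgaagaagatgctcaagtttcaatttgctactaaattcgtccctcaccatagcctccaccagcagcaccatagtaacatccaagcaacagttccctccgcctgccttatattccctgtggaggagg
Slc2a1 promoter, chr4:119108495-119108794, plus strand: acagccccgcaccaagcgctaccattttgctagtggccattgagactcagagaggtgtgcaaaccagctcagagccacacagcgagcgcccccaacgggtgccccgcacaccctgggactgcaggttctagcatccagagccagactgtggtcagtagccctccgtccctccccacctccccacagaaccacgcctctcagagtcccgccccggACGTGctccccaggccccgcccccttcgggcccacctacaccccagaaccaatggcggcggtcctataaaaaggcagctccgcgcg
The peak sequences are the 300 bases around the peak centre in the RefSeq GRCm38.p6 genome, written in the direction of the gene, and the promoter is the RefSeq sequence from 250 bases before to 50 after the start. Promoter sequences were found for 4 of the 6 genes, and those of Slc2a3 and Slc2a4 were not used here.

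The Slc2a3 peak of chromosome 6 from 122795124 to 122796050 was the site with the largest difference among the 5 peaks. Slc2a3 (ENSMUSG00000003153, 122727809 to 122801640, minus strand) has 8 annotated transcript starts, and the peak lies in an intron of the transcript that begins at the most upstream start, 5590 bp from it and 52.2 kb upstream of the protein-coding starts of the shorter transcripts. The annotated start nearest to the peak was not one of Slc2a3 but that of Gm4482, 1799 bp away. Replicates 1, 2 and 3 held 30.1, 22.9 and 28.4 CPM with LacZ-shRNA, and 14.7, 16.0 and 17.7 CPM with Yap-shRNA. The lowest control sample was above the highest knockdown sample. The means were 27.2 ± 3.76 and 16.1 ± 1.51 CPM (SD, n = 3 per group), and the log2 fold change of Yap-shRNA against LacZ-shRNA was -0.78 (SE 0.16). These values rest on 54 counts in LacZ-shRNA replicate 2, the fewest, to 193 counts in LacZ-shRNA replicate 3.

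The intron peak was the only 1 of the 5 to pass the threshold of edgeR's quasi-likelihood test over all peaks, a Benjamini-Hochberg adjusted p under 0.05, which 0.618% of all peaks passed in either direction. Because that result chose the family, nothing is read from the count. Leaving out Yap-shRNA replicate 1, the sample with the lowest level, took the count to 0 and the log2 fold change to -0.71. Among the 206 peaks called lower in Yap-shRNA the intron peak ranked 101 by log2 fold change, near their median of -0.77. Its mean level lay at the 63.5 percentile of all peaks, its length of 927 bp at the 52.0 percentile, and its GC content was 51.0%.

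The neighbouring peak at the upstream start, from 122800949 to 122802183, overlaps an exon of Slc2a3 and differed less. It held 23.8, 21.2 and 28.4 CPM in LacZ-shRNA and 19.9, 21.5 and 20.3 CPM in Yap-shRNA, so that the groups overlapped, with a log2 fold change of -0.29 (SE 0.15). The ratio of intron peak to start peak counts within a library involves no scaling between libraries. It was 1.26, 1.08 and 1.00 in the LacZ-shRNA replicates and 0.739, 0.742 and 0.870 in the Yap-shRNA replicates. The intron peak held as many counts as the start peak or more in each control library, and fewer in each knockdown library. As a share of the counts in all 5 peaks it ran from 14.0 to 16.8% in LacZ-shRNA and from 9.42 to 12.0% in Yap-shRNA. Both the ratio and the share contain the peak that chose the family, so they restate its difference and are no separate support.

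**Figure D1:**
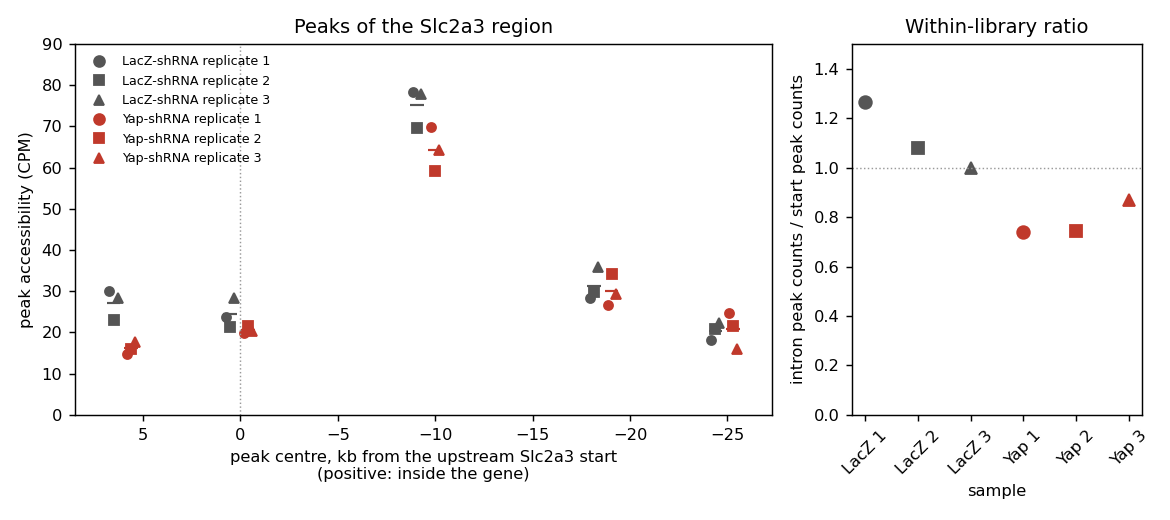
Left, accessibility of the 5 peaks of the Slc2a3 region in CPM against the position of the peak centre in kb from the upstream Slc2a3 start. Each point is 1 library, with grey for LacZ-shRNA, red for Yap-shRNA and short lines for group means, and points of a peak are spread sideways around its position so that they can be told apart. Right, counts in the intron peak, through which the family was chosen, divided by counts in the start peak in each library. The intron peak is lower in the 3 Yap-shRNA libraries, at 14.7 to 17.7 CPM against 22.9 to 30.1 CPM, and the ratio is at least 1.00 in LacZ-shRNA and at most 0.870 in Yap-shRNA.

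The other 3 peaks of the region lie at starts of neighbouring genes. At Gm5112, a predicted gene 8899 bp beyond the upstream Slc2a3 start (122810539 to 122811789), the libraries held 78.3, 69.6 and 77.8 CPM in LacZ-shRNA and 69.8, 59.2 and 64.2 CPM in Yap-shRNA. This was the highest peak of the region in every library, its groups overlapped narrowly, and its log2 fold change was -0.23 (SE 0.12). Both peaks at Foxj2, a forkhead transcription factor gene (122819550 to 122820928, shared with Gm26826, and 122826092 to 122826861), differed by less than their SE, with log2 fold changes of -0.08 (SE 0.14) and 0.02 (SE 0.17). The groups overlapped in 4 of the 5 peaks, against a background in which 13.3% of all peaks did not overlap. The nearest peaks outside the region were at Gm10420 (122696272 to 122696852, log2 fold change -0.38, SE 0.34) and at Necap1 (122874220 to 122874856, -0.19, SE 0.17).

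No other part of Slc2a3 held a peak. Of its 8 annotated starts, only the most upstream had a peak within 1 kb. The 3 protein-coding starts of the shorter transcripts, between 122742262 and 122742920, lay at least 45.4 kb from any peak. The upstream start lies 58.7 kb from the nearest of these.

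In sequence, the intron peak held a match to the MEF2 string, CTAAATCTAG, at positions 125 to 134 of the 300 bases, counted from the 5′ end as printed, and CAGCTG at positions 31 to 36. MEF2 and the myogenic factors that bind E-boxes are regulators of muscle genes. The 4 bases inside the MEF2 match are not all A or T, as they are in the best known MEF2 sites. The 300 bases around the centre of 35982 peaks held the MEF2 string in 3.76% of cases and CAGCTG in 17.2%. Over its whole 927 bp the peak also held 2 matches to TGANTCA and 1 to ACGTG. At least 1 match to these strings was held by 15.4% and 41.2%, in that order, of peaks within 10% of the length of the intron peak. ACATTCC was not among its letters, nor in any of the other 4 peaks of the region, and 6.57 to 11.4% of peaks within 10% of the length of each held it. Only exact matches were counted, so TEAD sites with other letters were not sought. The printed intron peak sequence holds GGAATGC, which differs from the reverse complement of ACATTCC in its last base. The start peak held CAGCTG at positions 118 to 123. None of the 13 peaks described at the 6 genes had an unbroken run of 15 or more of the same base, G or C.

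The Slc2a3 window sums 1 kb to each side of all 8 starts, 8662 bp in 4 separate pieces. It held 50.7, 54.8 and 58.3 CPM in LacZ-shRNA and 50.4, 50.9 and 49.4 CPM in Yap-shRNA. The groups overlapped through LacZ-shRNA replicate 1, and the log2 fold change was -0.12 (SE 0.13). Between 27.9 and 37.7% of the window counts fell into the start peak. The intron peak lies outside the window, so the window does not record it.

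Per kb of window, the 6 genes differed by far more among themselves than between groups. Slc2a4 stood highest, at 48.7 to 70.5 CPM per kb over the 6 libraries, and its mean was at the 99.9 percentile of all windows. Slc2a8 followed at 15.5 to 19.0 CPM per kb, then Slc2a1 at 10.8 to 18.3, Slc2a12 at 8.91 to 13.2, Slc2a10 at 5.65 to 7.07 and Slc2a3 at 5.70 to 6.73. The ranges of Slc2a4 and Slc2a8 did not overlap, nor did those of Slc2a12 and Slc2a10. Slc2a8 was above Slc2a1 in 5 of 6 libraries and Slc2a1 above Slc2a12 in 6 of 6, with overlapping ranges in both cases, while Slc2a10 and Slc2a3 were not separated, with Slc2a10 higher in 3 of 6. Each window takes in all annotated starts, so genes with many closed starts, as Slc2a3, have a lower level per kb than their open start alone. All windows had a median of 4.45 CPM per kb, with quartiles of 3.16 and 6.30.

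**Figure D2:**
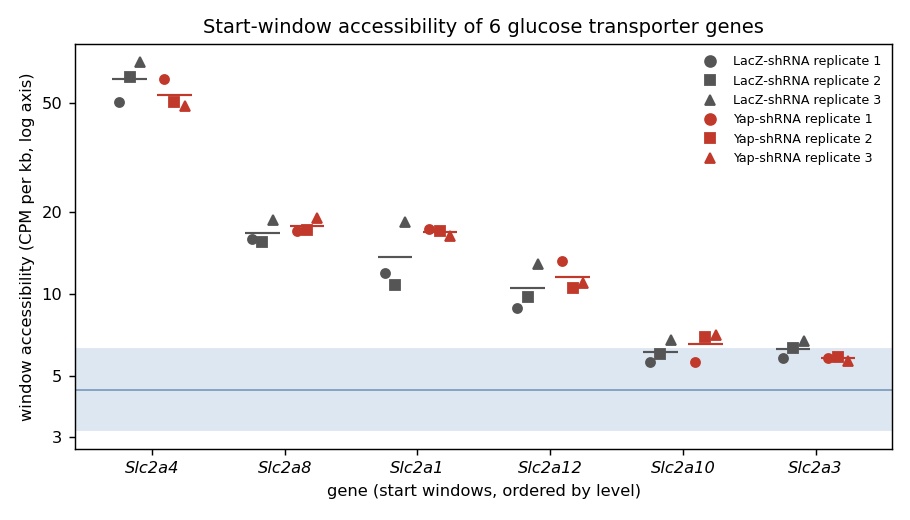
Accessibility of the start windows of the 6 genes in CPM per kb of window, on a log axis, in order of level. Points are libraries, grey for LacZ-shRNA and red for Yap-shRNA, short lines are group means, and the band and line mark the quartiles (3.16 and 6.30) and median (4.45) of all windows. Slc2a4 lies at 48.7 to 70.5 CPM per kb, above the other 5 genes in every library, and Slc2a10 and Slc2a3 lie at the upper edge of the band.

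Of the 6 windows, 0 passed the threshold, against 0.0223% of all windows, and 0 had an unadjusted p under 0.05 in edgeR, against 4.90% of all windows. DESeq2, limma voom and the likelihood-ratio test also called 0. The groups overlapped in all 6, where 10.1% of all windows did not overlap. Log2 fold changes ran from -0.19 to 0.26 with a median of 0.08, and the median of all windows was -0.01.

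Slc2a4 (ENSMUSG00000018566, chromosome 11, 69942539 to 69948188, minus strand) had the most accessible window. Its libraries held 112, 138 and 156 CPM in LacZ-shRNA and 136, 112 and 108 CPM in Yap-shRNA, a log2 fold change of -0.19 (SE 0.14). LacZ-shRNA replicate 1 was as low as Yap-shRNA replicates 2 and 3, and the groups overlapped widely. Leaving out 1 library moved the value between -0.32 (without LacZ-shRNA replicate 1) and -0.07 (without LacZ-shRNA replicate 3). A single peak of 6216 bp (69943903 to 69950118) covered all 8 of its starts and most of the gene, longer than 99.9% of all peaks. It held 248, 290 and 286 CPM in LacZ-shRNA and 300, 268 and 255 CPM in Yap-shRNA. Its log2 fold change was -0.003 (SE 0.15), and the group means were 275 ± 23.5 and 274 ± 23.1 CPM (SD, n = 3 per group). Over its length it held 1 match to ACATTCC, 3 to the MEF2 string and 6 to CAGCTG. Of 43 peaks within 10% of its length, 41.9%, 48.8% and 81.4% held at least 1 match to these strings.

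Slc2a1 (ENSMUSG00000028645, chromosome 4, 119108711 to 119137983, plus strand) had the largest difference among the windows, in the direction opposite to that of Slc2a3. The libraries held 26.2, 23.7 and 40.3 CPM in LacZ-shRNA and 38.0, 37.5 and 35.9 CPM in Yap-shRNA, a log2 fold change of 0.26 (SE 0.15). LacZ-shRNA replicates 1 and 2 were low and LacZ-shRNA replicate 3 was the highest of all 6 samples. Without that replicate the log2 fold change was 0.56, and without LacZ-shRNA replicate 1 it was 0.12. LacZ-shRNA replicates 1 and 2 were also the shallowest libraries, and the part of depth in the difference was not tested.

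Both peaks at Slc2a1 held more CPM in every Yap-shRNA library than in any LacZ-shRNA library, where 13.3% of all peaks did not overlap between groups. The peak over its 5 starts (119108280 to 119109555) held 32.3, 27.6 and 42.7 CPM in LacZ-shRNA and 46.2, 46.6 and 43.0 CPM in Yap-shRNA, with a log2 fold change of 0.35 (SE 0.14). LacZ-shRNA replicate 3 and Yap-shRNA replicate 3 nearly touched. An intergenic peak 5718 bp upstream of the nearest Slc2a1 start (119102154 to 119102993) held 10.1, 10.2 and 12.8 CPM in LacZ-shRNA and 15.3, 16.8 and 15.5 CPM in Yap-shRNA. Its log2 fold change was 0.48 (SE 0.19), on counts from 24 to 121 per library. Without LacZ-shRNA replicate 3, the control library nearest to the Yap-shRNA libraries in both peaks, the values became 0.58 for the start peak and 0.64 for the upstream peak. The start peak then passed the threshold, in a fit that called 447 of all 36097 peaks, against 223 with all samples. Leaving out this replicate widens the difference by itself, so the call is no added support. The upstream peak held TGAGTCA, an AP-1 match, at positions 22 to 28 and ACGTG at positions 47 to 51, and the promoter held ACGTG at positions 215 to 219. ACGTG was found in 14.2% of peaks and 19.6% of 32851 promoters over 300 bases, and TGANTCA in 5.20% of peaks.

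Slc2a8, Slc2a10 and Slc2a12 differed by less than their SE in each window, with log2 fold changes of 0.07 (SE 0.14), 0.08 (SE 0.15) and 0.12 (SE 0.15). The Slc2a8 window (ENSMUSG00000026791, chromosome 2) held 32.9, 32.0 and 38.6 CPM in LacZ-shRNA and 35.1, 35.5 and 39.3 CPM in Yap-shRNA. The Slc2a10 window (ENSMUSG00000027661, chromosome 2) held 22.6, 24.0 and 27.1 CPM in LacZ-shRNA and 22.6, 27.9 and 28.3 CPM in Yap-shRNA. For Slc2a12 (ENSMUSG00000037490, chromosome 10) the values were 35.6, 39.1 and 51.5 CPM in LacZ-shRNA and 52.7, 42.2 and 43.9 CPM in Yap-shRNA, and the direction turned without LacZ-shRNA replicate 1 (-0.02). In each of these genes the groups overlapped and the spread within a group was larger than the difference between the means.

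Peaks at these 3 genes were arranged differently. All 6 starts of Slc2a8 had a peak within 1 kb, on 32981211 to 32982514 (log2 fold change 0.13, SE 0.13), and 81 to 85% of its window counts fell into peaks. A higher peak lay beyond the 3′ end of Slc2a8 (32966286 to 32968782), where it held 48.5, 66.2 and 55.8 CPM in LacZ-shRNA and 64.2, 64.2 and 68.8 CPM in Yap-shRNA (0.22, SE 0.13). It held 3 matches to ACATTCC, a string present in 23.5% of 846 peaks within 10% of its length. The annotated start nearest to this peak was that of Snora65, 2995 bp away, and the nearest Slc2a8 start lay 13235 bp away. Slc2a10 had no peak within 1 kb of either start. Its peak was in an intron, 2147 bp from the nearer start (165510928 to 165512001), with a log2 fold change of 0.14 (SE 0.15). Slc2a12 had a peak at 1 of 2 starts (22644667 to 22645700), at 0.04 (SE 0.14), which held 1 match each to ACATTCC and the MEF2 string.

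Within 10 kb of these 5 genes lay 8 peaks in all, the last in an exon of Garnl3 beyond the 5′ end of Slc2a8 (32991964 to 32992459, 0.17, SE 0.24). None of the 8 passed the threshold in edgeR, DESeq2, limma voom or the likelihood-ratio test. In edgeR 2 had an unadjusted p under 0.05, both at Slc2a1, against 8.90% of all peaks. In DESeq2 the adjusted p was missing for 2 of them. Of the 8 log2 fold changes 7 were above 0, with a median of 0.15, and the median of all peaks was -0.003. Scaling by library size alone moves the median of all peaks to 0.14, so small values of either sign are relative to the TMM scaling.

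**Figure D3:**
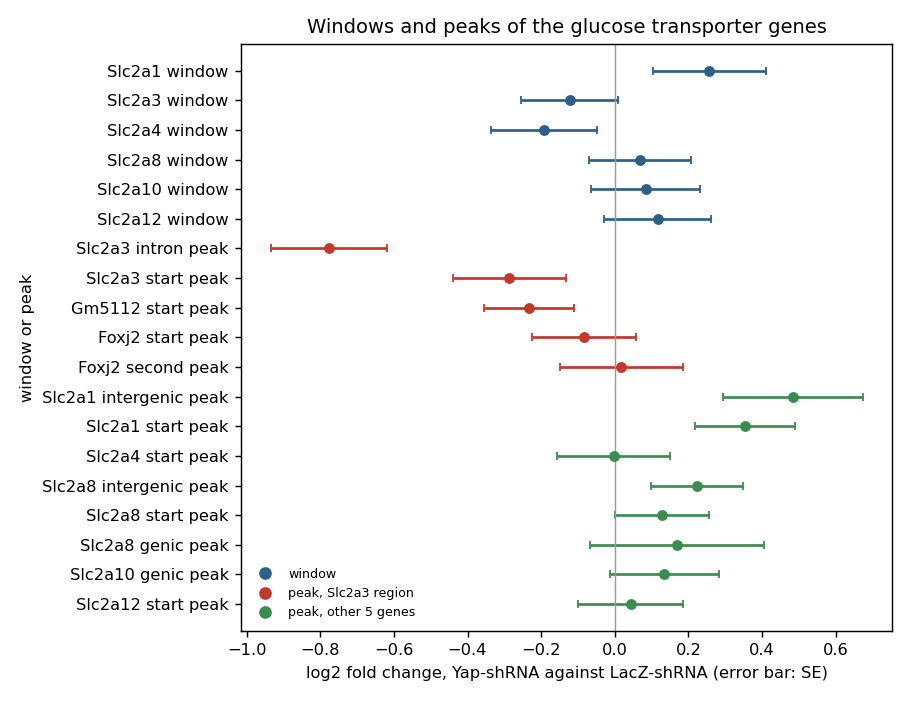
Log2 fold changes of Yap-shRNA against LacZ-shRNA for the 6 windows (blue), the 5 peaks of the Slc2a3 region (red) and the 8 peaks at the other 5 genes (green), with SE as error bars. The Slc2a3 intron peak lies at -0.78, below the 18 other values, and both Slc2a1 peaks lie at the upper end, at 0.35 and 0.48.

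The rest of the family and the machinery around it was read from 6 lists of pathway genes. Of 86 listed genes 85 had a window, and 0 passed the threshold over all windows in edgeR, DESeq2, limma voom or the likelihood-ratio test. In DESeq2 the adjusted p was missing for 11. Only Txnip had an unadjusted p under 0.05. The median of the 85 log2 fold changes was -0.0005, with 42 above and 43 below 0.

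The 6 other Slc2a genes, Slc2a2, Slc2a5, Slc2a6, Slc2a7, Slc2a9 and Slc2a13, ran from -0.17 to 0.16. Their extremes were Slc2a13, a proton-coupled inositol transporter (-0.17, SE 0.14), and Slc2a6 (0.16, SE 0.14). Sodium-coupled and other sugar transporters had a median of 0.05 over 12 genes. Slc5a10 had the smallest p among those below 0, and its groups did not overlap, at 28.9, 30.4 and 29.7 CPM in LacZ-shRNA against 27.1, 26.9 and 26.9 in Yap-shRNA, but its log2 fold change of -0.14 (SE 0.14) was no larger than its SE. Slc5a4b, on the other side, was at 0.29 (SE 0.21).

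Signalling genes that send GLUT4 vesicles to the surface, from the insulin receptor through Akt2 and Tbc1d4 to Rac1 and the subunits of AMPK, had a median of -0.05 over 21 genes, from -0.23 to 0.08. The lowest p in each direction belonged to Prkag3, the AMPK subunit typical of glycolytic fibres (-0.23, SE 0.14, edgeR adjusted p 0.9464), and to Pak1, a kinase downstream of Rac1 (0.08, SE 0.13). Genes of vesicle sorting and fusion had a median of 0.005 over 18 measured genes. Rab13, a GTPase of GLUT4 vesicles in muscle cells, was at 0.30 (SE 0.16, edgeR adjusted p 0.9464), with 15.4, 13.8 and 15.7 CPM in LacZ-shRNA and 17.8, 17.9 and 20.2 in Yap-shRNA, in a window that overlaps that of Rps27. Rab10, its counterpart in fat cells, was at -0.23 (SE 0.14).

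Hexokinases and the genes of glucose feedback had the highest median of the 6 lists, 0.15 over 11 genes, with 8 above 0. Txnip, an arrestin that lowers glucose uptake and is induced by glucose, had the lowest value of the list. Its window held 55.9, 89.4 and 95.2 CPM in LacZ-shRNA and 79.6, 53.5 and 54.9 CPM in Yap-shRNA, a difference of -0.35 on the log2 scale (SE 0.16, edgeR adjusted p 0.9464, unadjusted 0.0341), and it overlaps the window of Gm15441. LacZ-shRNA replicate 1 lay among the Yap-shRNA samples. Without it Txnip passed the threshold, at -0.57 (SE 0.11, edgeR adjusted p 0.00332). That fit called 157 of all windows, against 11 with all samples, and leaving out this replicate widens the difference by itself. Transcription factors known to act on transporter genes, among them the MEF2 factors, Klf15, Hif1a and Ppargc1a, had a median of -0.09 over 17 genes, with Foxo1 at -0.29 (SE 0.17) and Srebf1 at 0.21 (SE 0.14), both with an edgeR adjusted p above 0.94.

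**Figure D4:**
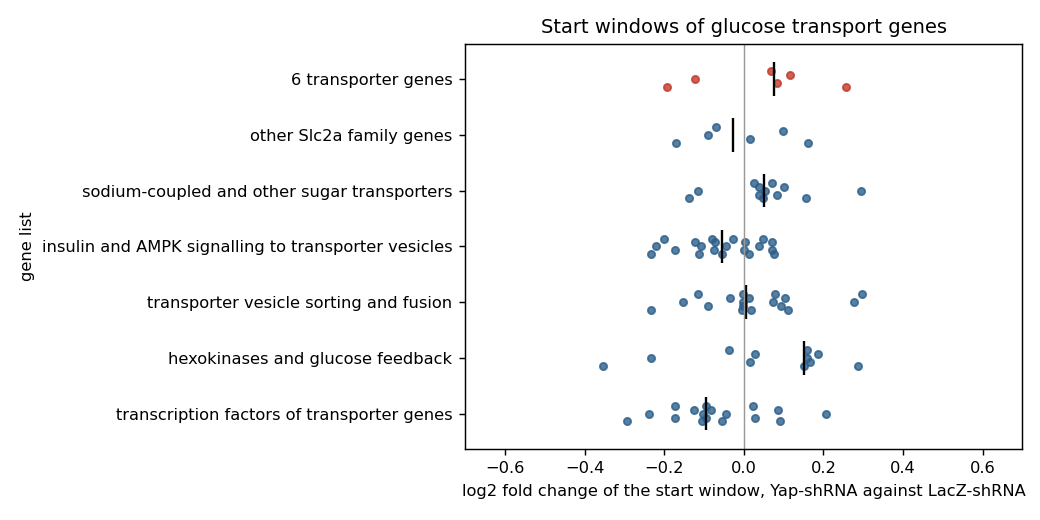
Log2 fold changes of start windows, Yap-shRNA against LacZ-shRNA, for the 6 transporter genes (red) and the 6 pathway lists (blue). Each point is 1 gene and vertical black lines are list medians. The 85 pathway genes lie between -0.35 and 0.30, and the medians lie between -0.09 and 0.15.

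Marker genes of other cells are given beside these values, and their part in the differences was not tested. The summed windows of 7 of 7 fibroblast markers ran from 159.9 to 164.6 CPM in LacZ-shRNA and from 172 to 199 in Yap-shRNA. For 9 of 10 leukocyte markers the sums were 189 to 227 and 225 to 244 CPM, for 10 of 10 endothelial markers 365 to 390.3 and 354 to 391, and for 13 of 13 muscle fibre markers 1617 to 2282 and 1707 to 2000.1. The sums of the satellite cell, adipocyte and Schwann cell lists, of 5 genes each, overlapped between groups, so that only the fibroblast sums were apart. The fibroblast markers did not move together, with 4 log2 fold changes above 0 and 3 below, from -0.26 to 0.42. Of the leukocyte markers 7 were above 0 and 2 below, with a median of 0.25. Of the muscle fibre markers 3 were above 0 and 10 below, with a median of -0.10. The median of all windows was -0.01. No marker window passed the threshold. An unadjusted p under 0.05 in edgeR was found above 0 for 3 of 7 fibroblast, 1 of 9 leukocyte and 1 of 5 adipocyte markers. Below 0 it was found for 2 of 10 endothelial and 1 of 5 satellite cell markers. These counts stand against a share of 4.90% of all windows.

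Windows and peaks whose levels followed those of Slc2a3 over the 6 libraries were sought by Pearson correlation of log2 CPM among features with a mean count of at least 100. The windows most like the Slc2a3 window were those of Erbin, Gm36431, Qk, Gmnn and Lrrc61, with correlations from 0.988 to 0.991, and 100 of 18376 windows reached 0.95. For the intron peak the closest peaks had Tmc6, Ldlrad3, Trdd2, Irgq and AC165409.1 as their nearest genes, with correlations from 0.987 to 0.997, and 39 of 15524 peaks reached 0.95. These correlations rest on 6 libraries in 2 groups that differ in depth, and many features share the same profile.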

How the data were processed

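PCM1-positive nuclei were profiled in 6 libraries, 3 for LacZ-shRNA and 3 for Yap-shRNA, grouped by the labels. The authors mapped paired-end reads to GRCm38 with BWA 0.7.17, removed duplicates with SAMtools 1.8, called peaks per sample with MACS 1.4.2-1, kept those found in more than 1 sample and counted with featureCounts 1.5.0. The deposited values are raw counts per peak and per start window, with means under 10 removed. The authors state a mapping quality of at least 10 for reads counted over whole genes, but not whether it applied to these tables. The transposase offset cannot be seen in counts.

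Windows were taken as 1 kb to each side of each start in GENCODE vM21, in which all window identifiers were found, and 21.0% of windows overlapped another gene's. Counts were fitted over all windows or all peaks with edgeR 4.0.16 in R 4.3.3 (TMM, quasi-likelihood test, no covariate, Benjamini-Hochberg adjustment, threshold 0.05). Levels are CPM with TMM factors. SE is that of the log2 fold change, computed as its absolute value divided by the square root of the test's F statistic. Motifs were exact matches on both strands. The fits were tested on simulated data. The genes, the region and the gene lists were chosen with earlier results of these data known. Named genes are all 6 transporters, all peaks described, the gene with the smallest p in each direction of each pathway list (every gene past the threshold where there was one), and the 5 windows and 5 peaks most correlated with Slc2a3. A gene that meets this rule is not reported here. As alternatives, each fit was repeated with the likelihood-ratio test, with DESeq2 1.42.0, with voom of limma 3.58.1, with RLE factors or library size alone, with loess offsets on abundance or GC content (span 0.3), at mean counts of 50 or more, after removing the top 1%, with a replicate block, at a threshold of 0.01 and without each sample in turn. Promoter peaks in place of windows, a 50 kb extension and whole peaks for motifs were also tried.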

Additional observations from a re-analysis of the deposited data

How the results depend on the processing

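Of the log2 fold changes at the 6 genes, 299 alternative values stayed within the spread between replicates and 8 moved further. Those were Slc2a1 without LacZ-shRNA replicate 3 (window 0.56, upstream peak 0.64), the Slc2a3 window with its promoter peak in its place (-0.29), and, with library size alone, the Gm5112 peak (-0.09), the Slc2a4 peak (0.14, and 0.16 with the abundance offset), the Slc2a8 start peak (0.27) and the Slc2a10 peak (0.27). Slc2a4 was itself among the top 1% in both tables and Slc2a10 had no promoter peak, so those alternatives gave them no value. The Slc2a3 intron peak ran from -0.86 to -0.64. Signs changed at both Foxj2 peaks, the Slc2a4 and Slc2a12 peaks, the Slc2a12 window and the Garnl3 exon peak, to values between -0.13 and 0.16. Called windows numbered 11, and 33 under the likelihood-ratio test, 20 under DESeq2, 23 under voom, 29 and 22 under the offsets on abundance and GC content, and 7 after removing the top 1%. Called peaks numbered 223, and under the likelihood-ratio test 378, under DESeq2 116, under the abundance offset 145, at a mean count of 50 or more 136 and at an adjusted p under 0.01 they numbered 103. Leaving out 1 sample gave 4 (without Yap-shRNA replicate 2) to 157 windows (without LacZ-shRNA replicate 1) and 94 (without Yap-shRNA replicate 1 or 2) to 447 peaks (without LacZ-shRNA replicate 3). The cause was not tested. Leaving out 1 sample gave from 0 to 1 calls among pathway windows (Txnip, without LacZ-shRNA replicate 1), among peaks of the Slc2a3 region (0 without Yap-shRNA replicate 1) and among the 8 peaks at the other 5 genes (the Slc2a1 start peak, without LacZ-shRNA replicate 3), and 0 in each case among the 6 windows. With the replicate block, which the numbers do not justify as a pairing (correlations of same-numbered samples 0.19, -0.12 and 0.09 in windows, 0.015, -0.093 and -0.14 in peaks), 13 windows and 207 peaks were called, of them 1 peak of the Slc2a3 region and 0 of the 6 windows, 0 of the 8 peaks and 0 pathway windows. LacZ-shRNA replicate 2 held 54 counts in the intron peak, so its ratios there are the least precise.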
